A study of Mus musculus with 2 samples.

Results

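DEAD box and DEAH box helicases are the genes described here, in a profile of NRF1 occupancy in skeletal muscle. Members were all protein-coding genes of the mm10 mouse annotation whose symbol starts with Ddx or Dhx followed by a number, except for 1 gene that the rule leaves out. They numbered 52 of 21000 protein-coding genes. The study performed chromatin immunoprecipitation followed by sequencing (ChIP-seq), in which an antibody recovers a protein with the DNA it occupies, on nuclear extracts of skeletal muscle from wild-type male mice on a C57Bl/6J background. The age given for the animals of its NRF1 target genes was 9 weeks. The purpose was to compare NRF1 sites with those of a hormone receptor, the glucocorticoid receptor, and the histone demethylase LSD1. The 2 libraries carry the same labels, NRF1 antibody and wild-type, and form 1 group, with no treatment or other genotype to compare. A single list of 3226 peaks was analysed, named after the library of replicate 1. By the study's reporting summary, replicate 2 is an input DNA library, which its label does not say. There is thus no replicate error on any value, and the extract holds every nucleus type of the muscle. The list holds no expression values, so the labelled tissue was not checked against marker genes.

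These helicases use ATP to unwind RNA duplexes or to strip proteins from RNA, and are named after the amino acids of a conserved motif in their helicase core. Members serve in nearly every step of RNA life, from splicing, export and ribosome assembly to translation, decay and the sensing of viral RNA. NRF1 (nuclear respiratory factor 1) recognizes GC-rich palindromes close to transcription starts. It is best known as a regulator of genes of the respiratory chain and of mitochondrial biogenesis.

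Promoters reached from 1000 bp upstream of a transcription start to 100 bp downstream, and a gene had a promoter peak when a summit lay there. Of the 52 helicase genes, 14 had a promoter peak, or 26.9% (Wilson 95% interval 16.8 to 40.3%, which covers counting error over genes only). Over all protein-coding genes the share was 13.4%, that is 2804 of 21000. Most helicase genes, 47 of the 52, have starts rich in CpG dinucleotides, and among genes with such starts the shares lay close together, 27.7% for the helicases and 23.7% for all protein-coding genes. The 14 genes were Ddx39b, Ddx39a, Ddx42, Ddx41, Ddx10, Ddx24, Ddx27, Ddx56, Dhx37, Dhx34, Dhx9, Ddx11, Ddx25 and Ddx59. They lay on 10 chromosomes. In 13 of them there was 1 promoter peak, and Ddx42 had 2. Among genes with a Ddx symbol 11 of 36 had a peak (30.6%), and among those with a Dhx symbol 3 of 16 (18.8%). Whether these shares differ was not tested.

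The NRF1 motif searched was GCGCATGCGC, which reads the same on both strands, allowing at most 1 mismatch within 100 bp of a summit. It was present at 11 of the 15 helicase promoter peaks, and the copy nearest the summit is shown for each because it is the feature these promoters have in common. The motif is in capitals between its flanking bases, in the RefSeq sequence of mm10 (GRCm38) read 5′ to 3′ on the strand of the gene. At Dhx34 and Dhx37 the palindrome was exact.
Dhx34, chr7:16222066-16222095, minus strand: ttcgcgatctGCGCATGCGCagtctggaga
Dhx37, chr5:125434106-125434135, minus strand: cgcggctcttGCGCATGCGCaacccggaag
Ddx39b, chr17:35241725-35241754, plus strand: ccggctccttGCGCGTGCGCcctggcggcc
Ddx10, chr9:53248097-53248126, minus strand: tcccggacttGCGCGTGCGCccctgcgcct
Ddx59, chr1:136415287-136415316, plus strand: ctcccgctgtGCGCAGGCGCggggccctca
Dhx9, chr1:153487679-153487708, minus strand: ttggcctaccGCGCAGGCGCgagtcgccga
Ddx11, chr17:66123491-66123520, plus strand: gagcggcagcGCGCAGGCGCagtggctcgg
Ddx42, chr11:106216346-106216375, plus strand: cagctagtttGCGCCTGCGCgcggggtggg
Ddx27, chr2:167015232-167015261, plus strand: gtgacgtgaaGCACATGCGCgcgacgccga
Ddx39a, chr8:83715475-83715504, plus strand: gggctccattGAGCATGCGCcaggggcggg
Ddx25, chr9:35559350-35559379, minus strand: ccgaagcccaCCGCATGCGCaggtttctga

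Counted from 1 at the 5′ end of the palindrome, Ddx39b and Ddx10 shared the substitution A5G. Ddx59, Dhx9 and Ddx11 shared T6G, and the A5C copy of Ddx42 is the same site read from the other strand, so that 4 of the 11 peaks held it. The remaining copies carried G3A at Ddx27, C2A at Ddx39a and G1C at Ddx25. Of the 9 copies with 1 mismatch, 6 thus differed from the palindrome at its central A or T. The median distance between the centre of the nearest copy and the summit was 16.5 bp, and it was at most 25 bp at 9 of the 11 peaks. The exceptions were Ddx25, at 73.5 bp, and Ddx39a, at 81.5 bp. Ddx11 and Dhx34 each held a second copy in the window. Substitutions and distances were counted at helicase peaks only, so whether they differ at peaks of other genes was not tested.

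The other 4 helicase peaks held no such copy. They were those of Ddx24, Ddx41 and Ddx56 and the weaker of the 2 at Ddx42. The best match at the first 3 had 2 mismatches and is shown to compare with the copies above. The Ddx42 peak held no match even at this level.
Ddx24, chr12:103425863-103425892, minus strand: cttccttagcGCGCACGCGTgcccggagct
Ddx41, chr13:55536508-55536537, minus strand: ccctggcattGCGCATGTGTgcagcctaag
Ddx56, chr11:6267732-6267761, minus strand: gtcccgccctACGCGTGCGCactgacagcg

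At Ddx24 the substitutions were T6C and C10T, at Ddx41 C8T and C10T, and at Ddx56 G1A and A5G. The match was centred 17.5 bp from the summit at Ddx24 and 10.5 bp at Ddx56, but 80.5 bp at Ddx41. Among promoter peaks of other protein-coding genes, 65.8% held the motif with at most 1 mismatch, against 73.3% of the helicase peaks (Wilson 95% interval 48.0 to 89.1%). With the exact palindrome the shares were 11.0% and 13.3%. With at most 2 mismatches they were 90.9% and 93.3%. None of these differences was tested.

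Fold enrichment, which the authors computed as summit signal divided by control background, had a median of 12.0 over the 15 helicase peaks, with quartiles of 10.5 and 16.1. The 2537 promoter peaks of other protein-coding genes had a median of 11.1 and quartiles of 7.92 and 16.4. The helicase peaks, from 4.06 to 23.1, thus lay within the range of the others, 3.01 to 49.9. Those with the motif had a median of 12.8 and those without it of 9.21, beside 13.0 and 8.62 for other genes.

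**Figure D1:**
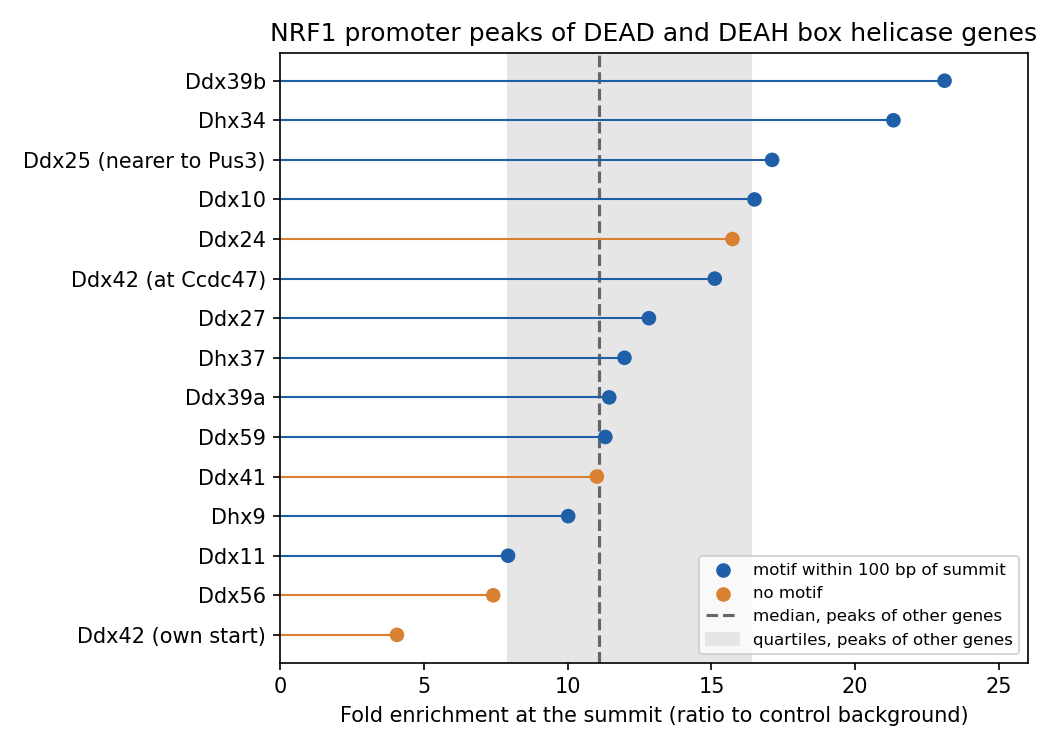
Fold enrichment at the summit of each of the 15 NRF1 promoter peaks of helicase genes, coloured by the motif within 100 bp of the summit. The dashed line and grey band are the median and quartiles of promoter peaks of other protein-coding genes (11.1, 7.92 and 16.4), and Ddx39b, Dhx34, Ddx25 and Ddx10 lie above the band and Ddx56 and the weaker peak of Ddx42 below it.

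Among the mRNA export helicases, Ddx39b and Ddx39a had a peak, and Ddx19a and Ddx19b did not (2 of 4, Wilson 95% interval 15.0 to 85.0%). The share of all protein-coding genes, 13.4%, lay just below that interval, and that of genes with CpG-rich starts, 23.7%, within it. Ddx39b (also known as UAP56), which recruits export factors to spliced mRNA, carried the strongest helicase peak, on chromosome 17 from 35241404 to 35241932. Its fold enrichment was 23.1, its −log10 q was 62.8, and 92.2% of promoter peaks of protein-coding genes had a lower fold enrichment. The summit lay 22 bp before the start, between genes. The peak of its paralog Ddx39a reached a fold enrichment of 11.4 and spanned 83715198 to 83715535 of chromosome 8. That summit was 166 bp before 1 annotated start and in an intron of a transcript with an earlier start. Both members of this paralogous pair thus carried the motif and a peak. Of 7 pairs of related helicases examined, to be read beside the same 13.4% for single genes, this was the 1 pair with a peak at both genes, Dhx9 and Dhx36 had a peak at Dhx9 alone, and the other 5 had none (Ddx3x and Ddx3y, Ddx5 and Ddx17, Ddx19a and Ddx19b, Ddx21 and Ddx50, Ddx58 and Dhx58).

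Of 16 helicases of nucleolar ribosome biogenesis, 5 had a promoter peak (31.2%, Wilson 95% interval 14.2 to 55.6%), beside 13.4% of all protein-coding genes, just below that interval, and 23.7% of those whose starts are rich in CpG dinucleotides, within it. Ddx10, which acts in maturation of the small subunit, had a fold enrichment of 16.5, with a summit 10 bp after the start, in an untranslated or non-coding exon. Ddx24, a nucleolar helicase of the large subunit, reached 15.7 without a motif at the summit. Its peak, on chromosome 12 from 103425801 to 103425982, had a −log10 q of 39.5 and a summit 48 bp before the start. Ddx27, also of the large subunit, had 12.8 with the summit 83 bp before the start, and Dhx37, which acts on the U3 RNA of the small subunit processome, had 12.0 at 77 bp before it. Ddx56 had the lowest fold enrichment of the 14 genes by their best peak, 7.41, with a −log10 q of 21.0, above that of Ddx11, on chromosome 11 from 6267496 to 6267952. Its summit lay 7 bp before the start. No promoter peak was called at Ddx18, Ddx21, Ddx31, Ddx47, Ddx49, Ddx50, Ddx51, Ddx52, Ddx54, Ddx55 and Dhx33.

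Of 9 splicing helicases, Ddx41 and Ddx42 had a promoter peak (22.2%, Wilson 95% interval 6.32 to 54.7%), a share whose interval covers the 13.4% of all protein-coding genes. Ddx41, found in spliceosomes and also studied as a sensor of DNA, had a fold enrichment of 11.0 and a −log10 q of 23.2. Its peak, on chromosome 13 from 55536315 to 55536821, had a summit 55 bp after the start, in an untranslated or non-coding exon. Ddx42, a helicase of the U2 small nuclear ribonucleoprotein, shares its promoter with Ccdc47, which is transcribed in the opposite direction. The stronger of its peaks held the motif, reached a fold enrichment of 15.1 and spanned 106216194 to 106216584 of chromosome 11. That summit was 541 bp before the Ddx42 start, but only 18 bp before the Ccdc47 start. The second, from 106216746 to 106217113, was 7 bp after the Ddx42 start with a fold enrichment of 4.06, a −log10 q of 5.35 and no motif. These were the 2 of 15 helicase peaks that also lay in the promoter of another protein-coding gene. Their share, 13.3%, stands beside 12.0% of the promoter peaks of other protein-coding genes. The remaining 7 splicing helicases, Ddx23, Ddx46, Dhx8, Dhx15, Dhx16, Dhx35 and Dhx38, had no promoter peak.

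In the cytoplasm, Dhx34 was the 1 gene of 6 helicases of translation and mRNA decay with a peak (16.7%, near the 13.4% of all protein-coding genes). Dhx34, a factor of nonsense-mediated decay, had the second highest fold enrichment, 21.3, with a −log10 q of 55.5, on chromosome 7 from 16221845 to 16222211 and a summit 33 bp before the start. Of 5 coregulators of transcription and RNA processing, Dhx9 had a peak (20.0%, beside the same 13.4%), with a fold enrichment of 10.0 and a summit 26 bp before the start. Dhx9 unwinds RNA and DNA duplexes and bridges transcription factors to RNA polymerase II. Ddx1, Ddx5, Ddx17 and Ddx20 of the same list had none.

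Ddx11, a DNA helicase of sister chromatid cohesion, had a fold enrichment of 7.92 and a −log10 q of 13.9, on chromosome 17 from 66123294 to 66123816. Its summit was 7 bp after the start, with a motif copy to either side. Ddx59, which has been linked to Hedgehog signalling, had a fold enrichment of 11.3 at 13 bp after its start, where an exon of the non-coding gene 9230116N13Rik overlaps its first exon. Dhx32, Dhx40 and Dhx57, grouped with it as other members, had no promoter peak. Of the helicases known for germ cells, Ddx25 had a peak and Ddx43 had none. The Ddx25 peak reached a fold enrichment of 17.1 and a −log10 q of 34.1, and spanned 35559332 to 35559638 of chromosome 9. Its summit was near the far edge of the promoter, 968 bp before the Ddx25 start, and it lay in an untranslated or non-coding exon of Pus3, a pseudouridine synthase gene whose own start was closer, at 878 bp. A second motif copy, centred 68.5 bp before the Ddx25 start, lay outside any peak.

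Over the 15 peaks the median summit was at -26 bp from the nearest start of the helicase gene, with quartiles of -80 and 7 bp, and 12 of the 15 were within 100 bp. For other genes the median was -52 bp and the quartiles -118 and -8 bp, with 70.7% within 100 bp. The 3 summits farther away were those of Ddx25, Ddx39a and the stronger peak of Ddx42.

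**Figure D2:**
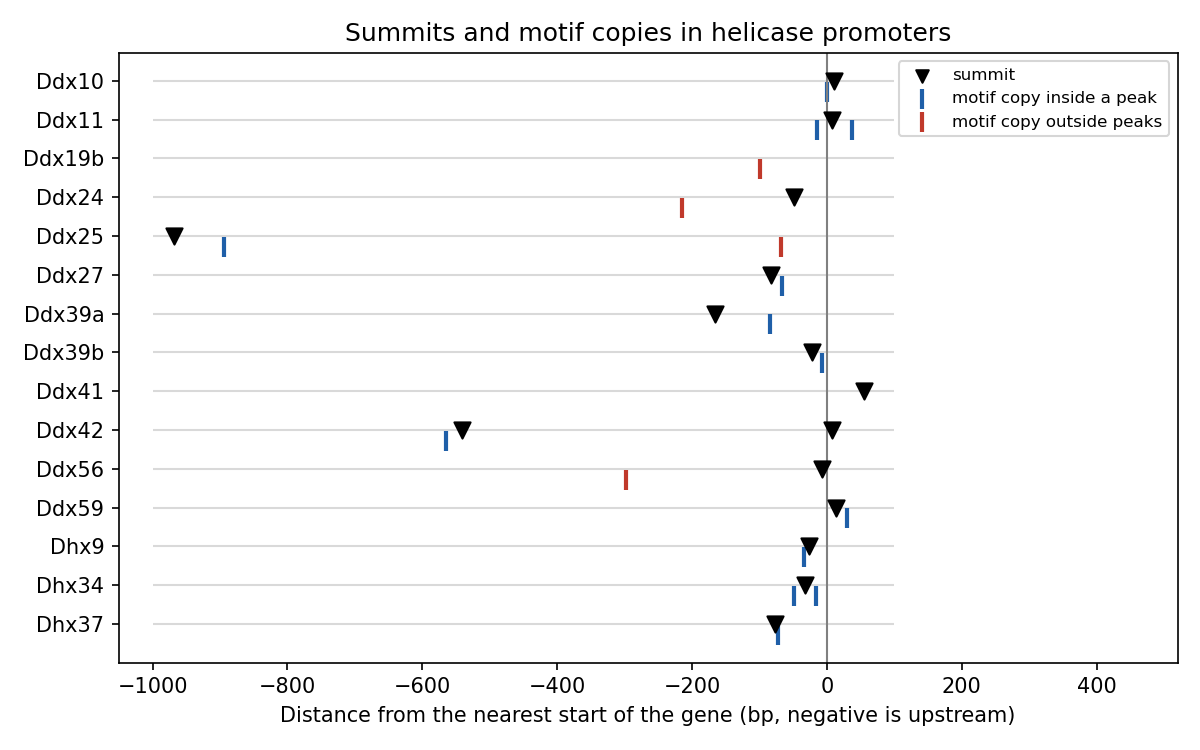
Summits (triangles) and motif copies with at most 1 mismatch (bars) along the promoters of the 14 helicase genes with a promoter peak and of Ddx19b, which holds a copy and no peak, in bp from the nearest start of the gene. Of the 17 copies, 13 lay inside a peak, and the other 4, at Ddx19b, Ddx24, Ddx25 and Ddx56, did not.

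No promoter peak was called at 38 of the 52 genes. Because the depth of the reads is unknown, a site under the peak threshold cannot be told apart from an unoccupied one. For 2 of the 38 a summit lay within 5000 bp of a start, in both cases downstream of it and inside the gene. At Dhx30, a helicase of mitochondrial ribosome assembly, it was 222 bp after the start, in an untranslated or non-coding exon. That peak spanned 110117274 to 110117521 of chromosome 9, with 5.16 as its fold enrichment and 6.75 as its −log10 q. Its motif copy, with the substitution G3T, is shown because it marks a site just beyond the promoter limit.
Dhx30, chr9:110117384-110117413, minus strand: ggggcccgcgGCTCATGCGCcgtgcaccga

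At the X-linked Ddx3x, which acts in translation initiation, the summit was 888 bp after the start, in an intron, with a fold enrichment of 6.26, a −log10 q of 6.17 and no motif. Its Y-linked paralog Ddx3y had the nearest summit at 389 kb. The nearest summit was 132 kb away for Ddx5 and 112 kb for Ddx17, both coregulators of transcription with roles in muscle differentiation. It was 187 kb away for Ddx6, which represses translation and promotes decapping. The second helicase of the mitochondrial ribosome, Ddx28, had its nearest summit at 151 kb. The antiviral sensors Ddx58 (RIG-I), Dhx58 and Ddx60 also lacked a promoter peak, with nearest summits at 28.8, 8.21 and 1295 kb. Dhx29 and Dhx36 complete the genes without one. In all, 6 of the 38 had their nearest summit between 5 and 50 kb away and 30 farther than that, with a median of 134 kb over the 38 genes.

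A motif copy in the promoter was frequent in helicase genes with a peak and rare in those without, whereas their base composition overlapped. Among other genes a copy was likewise present in 68.3% of those with a promoter peak and 3.44% of those without. For helicase genes these shares were 92.9% and 2.63%. The whole promoter, and not only the surroundings of a summit, was searched for the motif with at most 1 mismatch. Of the 52 helicase genes, 14 held a copy, and 13 of these 14 had a promoter peak (92.9%, Wilson 95% interval 68.5 to 98.7%), beside 75.4% of all 2544 protein-coding genes with a copy. Of the 38 helicase genes without a copy, 1 had a peak (Ddx41, 2.63%), beside 4.80% of the 18456 protein-coding genes without one. Both helicase genes with an exact palindrome had a peak, beside 89.4% of the 367 such genes. The exception with a copy and no peak was Ddx19b, which remodels mRNA-protein complexes at the nuclear pore. Its copy, centred 98.5 bp before a start, carried C10T and is shown for comparison with the copies inside peaks.
Ddx19b, chr8:111031835-111031864, minus strand: catgctcagtGCGCATGCGTaagcaagagc

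At Ddx24 and Ddx56, which count among the 13, the copy lay 214.5 and 298.5 bp before the start, outside the peak. The motif was thus present within the peak itself for 11 of the 14 helicase genes with a promoter peak.

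CpG content was measured as the ratio of observed to expected CpG within 200 bp of a start, taken as the median over the starts of a gene. The median ratio was 0.888 in helicase genes with a promoter peak and 0.897 in those without, and the ranges overlapped widely (0.557 to 1.13 and 0.120 to 1.19). Median GC content was 62.8% and 62.6%. Over all protein-coding genes the median ratio was 0.630. For genes other than the helicases it was 0.872 with a promoter peak and 0.549 without. Starts were called CpG-rich at a ratio of at least 0.6 and a GC content of at least 50%. By this measure 47 of the 52 helicase genes were CpG-rich (90.4%), beside 51.2% of all protein-coding genes. The comparison of peaks changed accordingly. Among CpG-rich genes 13 of 47 helicase genes had a promoter peak (27.7%, Wilson 95% interval 16.9 to 41.8%), beside 23.7% of all such genes, so that the helicase share was close to that background. Within CpG-rich genes, 12 of 13 helicase genes with a motif copy had a peak, beside 81.4% of all such genes. Without a copy it was 1 of 34, beside 9.29%. The helicase genes without CpG-rich starts were Ddx3y, Ddx42, Ddx60, Dhx32 and Dhx58, of which Ddx42 had a peak, beside 2.47% of all such genes.

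**Figure D3:**
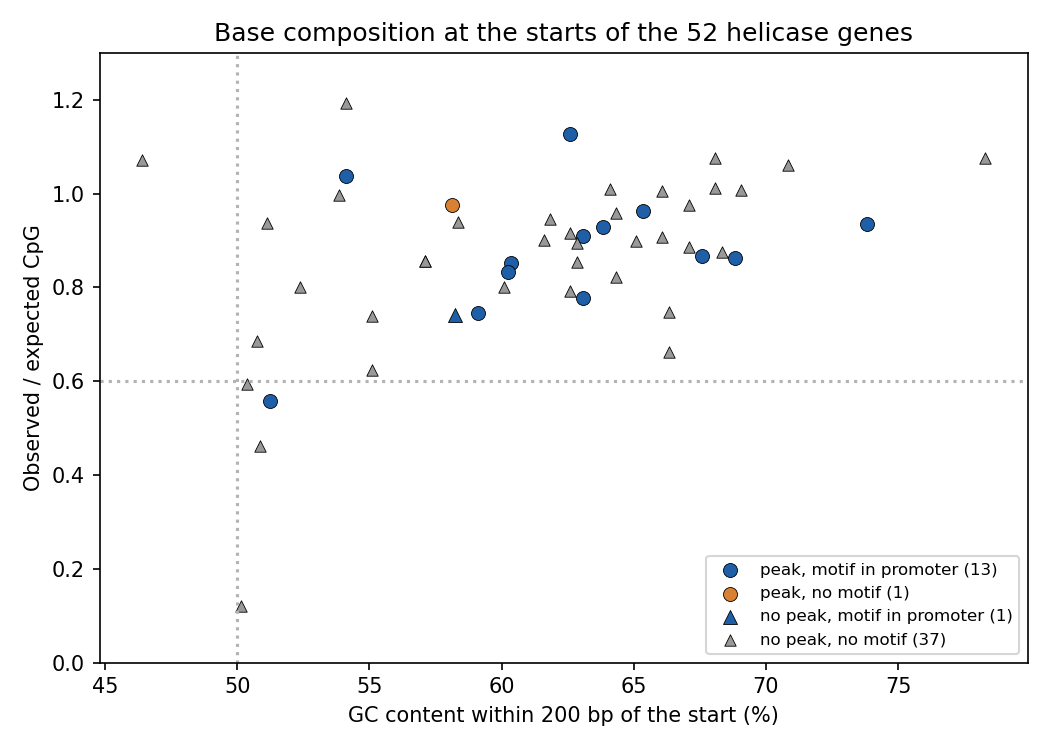
GC content against the observed to expected CpG ratio within 200 bp of the start for the 52 helicase genes, with dotted lines at the limits for CpG-rich starts. Circles (with a promoter peak) and triangles (without) are intermixed, while 13 of the 14 genes with a motif copy in the promoter, in blue, are circles.

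Other genes that act with these helicases were counted in lists. Of 20 RNA helicases with other symbols, among them Eif4a1, Eif4a2, Eif4a3, Snrnp200, Dicer1 and Ifih1, 1 had a promoter peak (5.00%, beside 13.4% of all genes). It was Upf1, the central helicase of nonsense-mediated decay, with a fold enrichment of 24.6 and 3 motif copies. G-patch proteins, which activate DEAH helicases, had a peak at 6 of 16 genes (37.5%, Wilson 95% interval 18.5 to 61.4%, beside the same 13.4%). These were Gpatch11 with a fold enrichment of 17.9, Gpatch8 with 17.6, Rbm17 with 7.60, Nkrf with 7.51, Cmtr1 with 7.18 and Rbm10 with 4.81.

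Further lists are likewise read beside the 13.4% of all protein-coding genes and the 23.7% of those with CpG-rich starts. Partners in export had a promoter peak at 6 of 12 genes (Wilson 95% interval 25.4 to 74.6%). Alyref, the adaptor that Ddx39b brings to mRNA, had a fold enrichment of 18.1. The export receptor Nxf1 had 9.39 and its partner Nxt1 10.3. Thoc3 and Thoc6 of the THO complex had 13.7 and 8.24, and the nucleoporin Nup214, which docks Ddx19b, had 5.68. Partners of Ddx6 in decay had one at 4 of 10 genes (Wilson 95% interval 16.8 to 68.7%), namely Dcp1a (18.5), Patl1 (15.0), Dcp2 (13.9) and Lsm14b (13.5), again as fold enrichment, although Ddx6 itself had none. In the SMN complex, which assembles small nuclear ribonucleoproteins with Ddx20, Strap (8.62) and Gemin4 (7.89) had one of 8 genes, and among 4 partners of RIG-I the ligase Trim25 (10.1) had one. The Wilson intervals of the last 2 lists, 7.15 to 59.1% and 4.56 to 69.9%, cover both shares. Those of the G-patch and decay lists cover the share of genes with CpG-rich starts, and that of the export list begins just above it. These lists are small, and their shares were not tested against each other or against all genes.

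**Figure D4:**
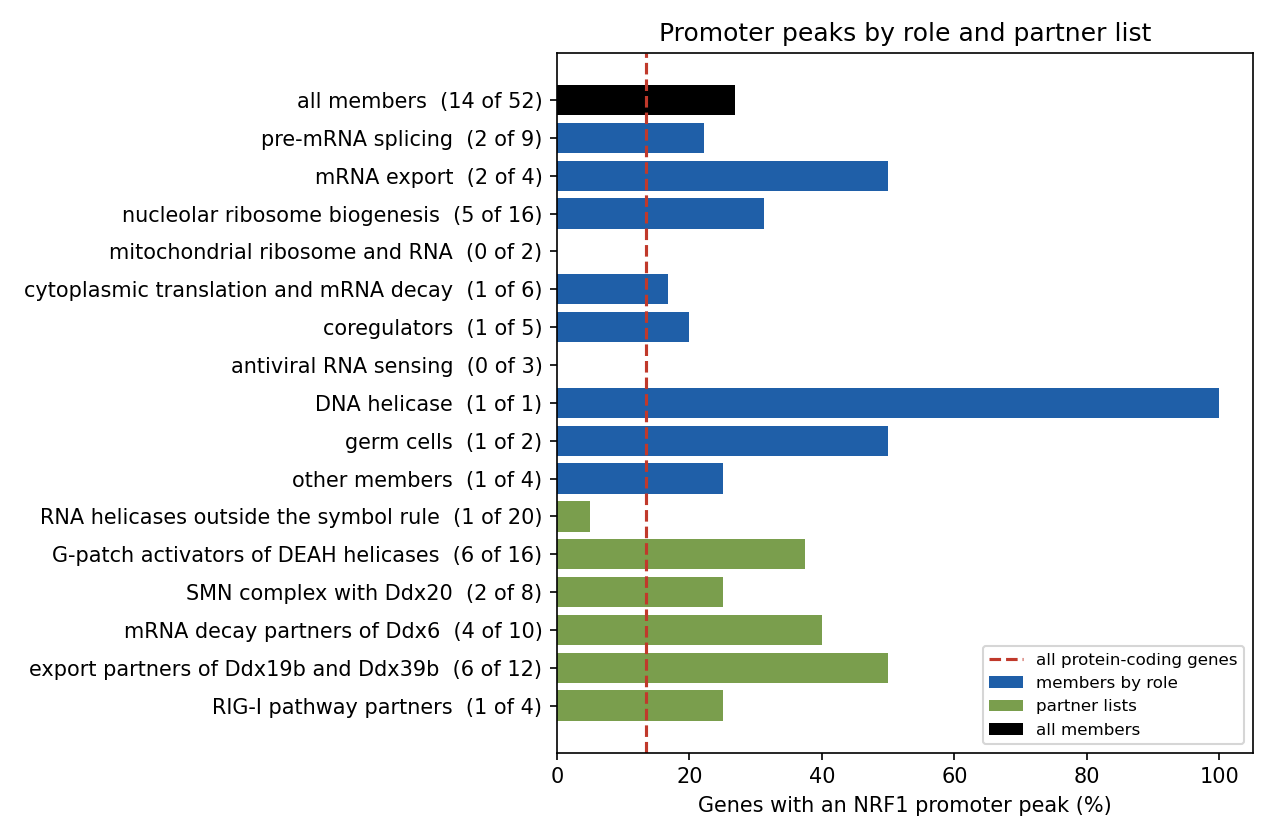
Percentage of genes with an NRF1 promoter peak among the 52 helicase genes, by role (blue), and in lists of genes that act with them (green), with counts beside each name. The dashed line is the share over all protein-coding genes, 13.4%, and the bar for DNA helicases stands for 1 gene.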

How the data were processed

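Per the labels, 2 wild-type skeletal muscle libraries were prepared with the NRF1 antibody, and the submitters' processing notes name mm10. In the study's methods, the authors aligned reads with Bowtie, kept unique reads, removed blacklisted regions (the list named is for a human build) and called peaks with MACS2 against input DNA. The calling they describe is for broad peaks, with those above an FDR of 0.01 excluded. The list analysed here differs, since it is in the format for narrow peaks, with summits, and still holds some peaks above that FDR. The deposited list gives for each peak a fold enrichment (a ratio to the control background), a −log10 p-value and q-value, a score derived from the q-value, and the summit. Of its 3226 peaks, 7 have a q-value above 0.01. Total reads are not given, so depth is unknown, and it bears on every gene without a peak. Unique mapping lowers signal in repeated sequence.

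Starts were those of known RefSeq transcripts of GRCm38, coding ones for protein-coding genes. Summits were placed and motifs counted with Python 3.11.15, pandas 2.3.3 and pysam 0.24.0, tested on simulated data. The members and lists were chosen with earlier results of these data known, so counts stand beside those over all genes, with no test. All genes with a promoter peak are named. Strongest, weakest and motif-free peaks, and those shared with another gene, are given with positions. Thresholds, promoter windows, overlap, transcripts and motif settings were varied.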

Additional observations from a re-analysis of the deposited data

How the results depend on the processing

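Of 45 alternative values for 6 results, 35 stayed within the limits set by counting error or, for counts, within 1.5 times the value reported. The count of helicase genes with a promoter peak ranged from 13 to 15. Dhx30 was added with a wide promoter (2000 bp upstream to 500 bp downstream), with 500 bp to either side (where Ddx25 was lost), with any overlap of at least 1 bp and with predicted transcripts. Ddx42 was lost with CpG-rich starts, a setting chosen after seeing the data. The share of all protein-coding genes with a promoter peak was 12.8% at a q-value of at most 1e-05, 12.7% at a fold enrichment of at least 5, 14.7% with the wide promoter, 14.1% with 500 bp to either side, 14.1% with any overlap, 13.9% with predicted transcripts and 23.7% with CpG-rich starts, where fewer genes were counted. The median fold enrichment of promoter peaks of other genes was 11.5 at the stricter q-value and 11.6 at a fold enrichment of at least 5, since weak peaks were removed. Allowing 0 mismatches left the motif at 2 helicase peaks. With 1 list of peaks, no replicate could be left out. No paired analysis was possible because only 1 group was labelled.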

Other observations

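Divergent promoters, in which another gene starts within 1000 bp upstream in the opposite direction, were counted as well. Of 11 helicase genes with such a neighbour, 2 had a promoter peak (18.2%, Wilson 95% interval 5.14 to 47.7%), beside 31.2% of all 2441 such genes. These were Ddx42 with Ccdc47 and Ddx25 with Pus3, and in both the strongest summit was closer to the start of the neighbour. Of 41 helicase genes without a divergent neighbour, 12 had a peak (29.3%, Wilson 95% interval 17.6 to 44.5%), beside 11.0% of all such genes. These shares were not limited to CpG-rich starts, which 90.4% of helicase genes but 51.2% of all protein-coding genes have. The 9 helicase genes with a divergent neighbour and no peak were Ddx5, Ddx31, Ddx49, Ddx51, Ddx54, Dhx15, Dhx29, Dhx32 and Dhx38. These counts were made after the peaks were seen, and the difference was not tested.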
